A study of Mus musculus with 6 samples.

Results

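The 10 genes described here belong to the MHC class I antigen presentation pathway and were followed in endothelial cultures of *Nhe6*-knockout and wildtype mice. The members were the 10 rows of the deposited count table whose symbols were *H2-K1*, *H2-D1*, *B2m*, *Tap1*, *Tap2*, *Tapbp*, *Psmb8*, *Psmb9*, *Nlrc5* and *Erap1*, out of 24421 genes. Endothelial cells were taken from the stria vascularis, the vascular tissue of the cochlear lateral wall, which was isolated together with the spiral ligament. The mice were on postnatal days 10 to 12, and the cells were sorted and grown with serum without any treatment. Each genotype had 3 cultures, each from at least 6 pooled mice, and each culture gave 1 stranded poly(A) library. The GEO labels gave a C57BL/6N background for both genotypes, while the methods of the study described a targeted allele of mixed B6.129P2 origin that was crossed for many generations to C57BL/6J, so substrain and linked donor sequence cannot be told apart from the knockout. *Nhe6*-knockout and wildtype cultures differed in no other labelled way.

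MHC class I molecules show fragments of a cell's own proteins to CD8 T cells. The proteasome cuts proteins into peptides, the TAP transporter carries the peptides into the endoplasmic reticulum, peptidases trim them there, and a loading complex places them on a heavy chain that is paired with β2-microglobulin. Endothelial cells carry class I at rest, and interferons raise most genes of the pathway through interferon response factors and through NLRC5, a transactivator that acts at the shared promoter boxes of class I genes.

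Gene reads per library ran from 25587097 to 29126232, and 13479 genes had enough counts to be tested. Values below are normalized counts, which are reads scaled with edgeR's TMM method to the mean library size. Wildtype replicate 2 stood apart, at 112 on the first principal component of log2-transformed counts against -30.4 to -6.49 for the other 5 libraries, so the class I genes are also given without it. *Nhe6*-knockout replicates 1 and 2 were the most alike pair of a genotype, with a chi-square of 5.19 per degree of freedom against 101 to 448 for the other pairs. This is more than sampling noise, which alone does not show separate cultures, and both were counted as labelled. Of the 10 endothelial markers, *Cldn5* had no reads, and *Pecam1*, *Erg* and *Vwf* had at most 8, 15 and 25 in a library. All of these were too low to be tested. *Kdr* was tested with 1 to 68 reads, whereas *Emcn*, *Eng*, *Flt1*, *Cdh5* and *Tek* were more abundant. *Cdh5*, which encodes VE-cadherin, had 210 ± 28.0 normalized counts in *Nhe6*-knockout and 3727 ± 1364 in wildtype cultures (SD, n = 3 each; edgeR adjusted p = 0.0133). The endothelial markers did not move one way, since 3 of the 6 tested had a log2 fold change above 0 (*Eng* 0.76, *Emcn* 0.68 and *Tek* 0.67, the last 1.68 with an edgeR adjusted p of 0.0342 without wildtype replicate 2). All 7 fibroblast markers had a mean of at least 100. Their means over the 6 libraries ran from 3177.5 (*Dcn*) to 136111 (*Col1a2*), where *Emcn*, the most abundant endothelial marker, had 12376. Fewer cells of a type and less RNA per cell cannot be told apart in such bulk RNA, and the part of cell composition in the class I values was not tested.

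Of the 10 genes, 7 lie on mouse chromosome 17, in the MHC. *Psmb9*, *Tap1*, *Psmb8* and *Tap2* follow each other within 34.3 kb (GRCm38, chr17:34181987-34216321), *Tapbp* (chr17:33915899-33929292) and *H2-K1* (chr17:33996017-34000347) lie to the left of them, and *H2-D1* (chr17:35262730-35267499) lies to the right. *B2m* is on chromosome 2, *Nlrc5* on chromosome 8 and *Erap1* on chromosome 13. The upstream sequences of *H2-K1* and *B2m*, a heavy chain and the light chain, are shown because they carry the shared boxes through which the pathway is known to be controlled together. Both are from RefSeq on GRCm38.p6, 5′ to 3′ on the strand of the named gene, and capitals mark matches on either strand to the motifs spelled out after them.
H2-K1 (chr17:34000348-34000468, minus strand, 121 to 1 bases before the start): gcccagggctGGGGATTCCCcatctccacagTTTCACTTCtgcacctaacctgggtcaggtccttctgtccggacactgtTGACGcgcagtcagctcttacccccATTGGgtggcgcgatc
B2m (chr2:122147538-122147658, plus strand, 149 to 29 bases before the start): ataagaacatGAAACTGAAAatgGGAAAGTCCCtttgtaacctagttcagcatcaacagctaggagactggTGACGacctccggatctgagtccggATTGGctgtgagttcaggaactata

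The matching stretch upstream of the RefSeq start of *H2-D1* was identical to that of *H2-K1* at 108 of 121 bases (89.3%), and it is not printed because it lies in the first exon of longer GENCODE transcripts. In both, the boxes stand in the same order, with the κB letters (GGGGA directly followed by TTCCC) first, then the short interferon response letters (GAA, any 2 bases, GAAA), then TGACG, the core of the X2 box, and last CCAAT, the Y box, which reads ATTGG on this strand. *Tap1* and *Psmb9* are read in opposite directions from RefSeq starts 226 bases apart. The κB letters were found in 0.0814% of the 27025 mouse promoters searched over the same 250 bases before the start, the short interferon letters in 6.34%, TGACG in 17.9% and CCAAT in 34.5%. *B2m* held the longer interferon letters (GAAA, any 2 bases, GAAA; 3.04% of promoters) and other κB letters (GGGAC directly followed by TTTCC, 0.13%) upstream of the same X2 and Y letters. The interferon patterns differ in spacing, and neither contains the other. Of the 8 members with a RefSeq promoter entry (all but *Tap2* and *Nlrc5*), 5 held TGACG and 6 held CCAAT. These counts include *Tap1* and *Psmb9* separately, although their promoter windows share 275 of 300 bases. Their TGACG and CCAAT matches are the same bases read on opposite strands, so the distinct sites are fewer than the genes. The letters of an interferon gamma-activated site (TTC, any 3 bases, GAA) were found in *Psmb8* alone among the 8, and in 7.18% of all promoters. A match describes letters in the window and not bound sites.

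Across the genotype comparison, no class I gene passed the threshold of an adjusted p under 0.05 in edgeR's quasi-likelihood test (two-sided, Benjamini-Hochberg over all genes tested), in which 0.0668% of all genes passed. At an unadjusted p under 0.05 there were 3 of 10, namely *Nlrc5* and *Tap1* above wildtype and *Tapbp* below, where 11.8% of all genes reached that level, 6.14% above wildtype and 5.71% below. DESeq2 called 2 of 10 (*Nlrc5* and *Tap1*), where it called 4.69% of all genes, and limma-voom called 0. The same 3 genes were those whose values did not overlap between genotypes, which held for 19.9% of all genes. The median log2 fold change of the 10 genes was 0.11, beside -0.02 for all genes, with 5 above 0 and 5 below. No property of the group is read from these small counts, and the genes are described one by one.

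*Nlrc5*, the transactivator of class I genes, had the largest ratio between genotypes of the 10. It had 311, 326 and 147 normalized counts in *Nhe6*-knockout replicates 1, 2 and 3, and 97.8, 27.9 and 76.0 in the wildtype replicates. Every *Nhe6*-knockout culture lay above every wildtype culture, with replicate 3 nearest to them. The means were 261 ± 99.6 and 67.2 ± 35.8 (SD, n = 3 each), and the log2 fold change was 1.96 ± 0.54 (SE; 95% interval 0.66 to 3.26), a 3.88-fold difference with an adjusted p of 0.234 in edgeR and 0.0125 in DESeq2. Without wildtype replicate 2 the log2 fold change was 1.58 (edgeR adjusted p = 0.106). With *Nhe6*-knockout replicates 1 and 2 summed into 1 library it was 1.79 (edgeR adjusted p = 0.7325). *Nlrc5* was also the least abundant member per kilobase of its principal transcript, with 34.5 normalized counts per kb in *Nhe6*-knockout and 8.87 in wildtype cultures.

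**Figure D1:**
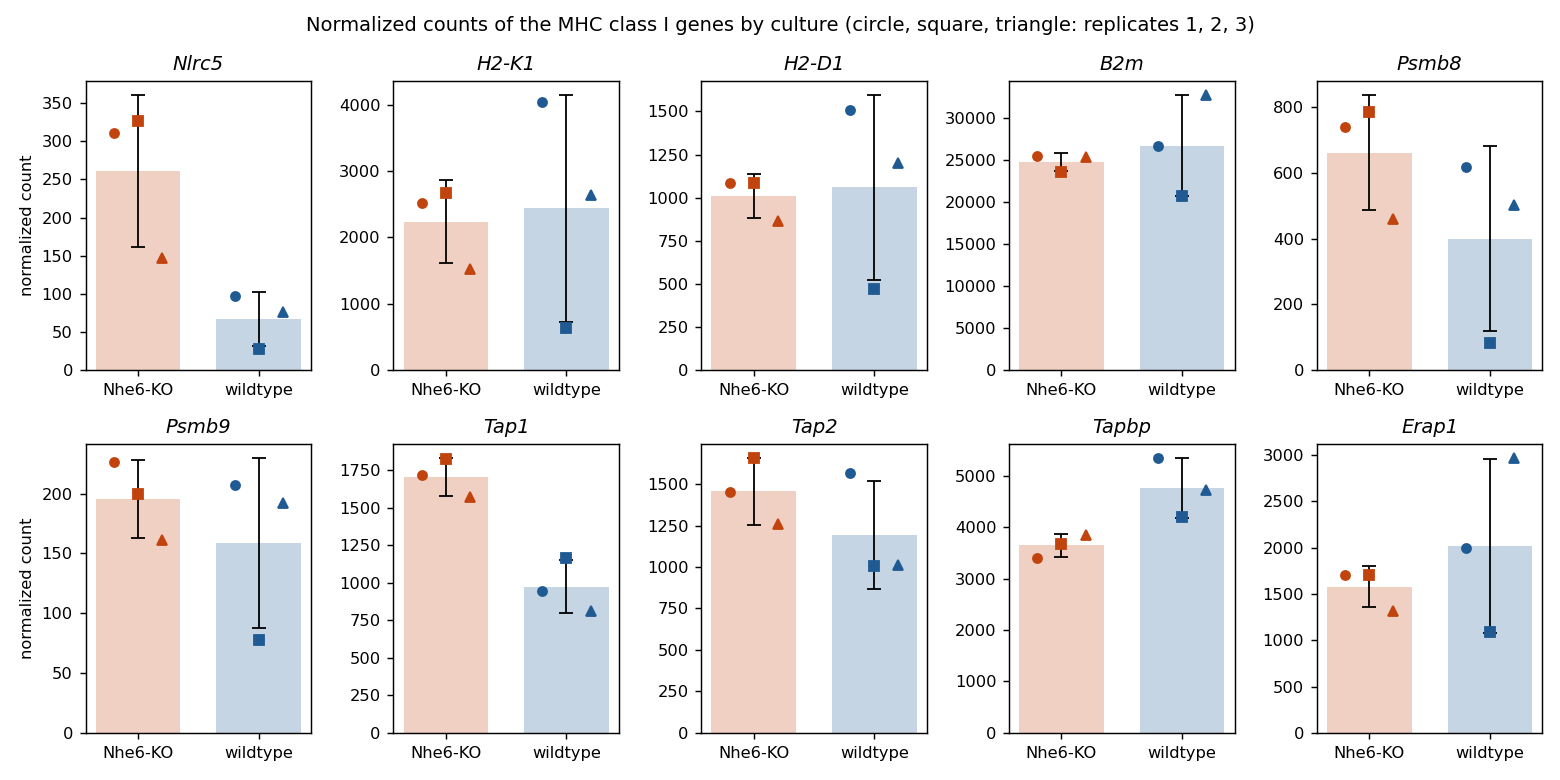
Normalized counts of the 10 class I genes, 1 panel per gene with its own vertical axis from 0. Points are single cultures (circle, square and triangle for replicates 1, 2 and 3), bars are means and error bars are SDs over 3 cultures. The *Nhe6*-knockout points of *Nlrc5* and *Tap1* all lie above the wildtype points, those of *Tapbp* all lie below, and wildtype replicate 2 is the lowest point of 8 panels.

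The heavy chains and their partner overlapped between the genotypes. *H2-K1*, which encodes the K heavy chain, had 2517, 2673 and 1521 normalized counts in *Nhe6*-knockout and 4043, 642 and 2639 in wildtype cultures. The wildtype cultures held both the highest and the lowest value of the 6. Its log2 fold change was -0.13 ± 0.61 (SE; 95% interval -1.60 to 1.35; edgeR adjusted p = 0.956), and -0.58 without wildtype replicate 2 (adjusted p = 0.339).

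*H2-D1*, the D heavy chain, had 1084, 1087 and 865 normalized counts in *Nhe6*-knockout and 1511, 469 and 1204 in wildtype cultures. As for *H2-K1*, the wildtype values enclosed those of *Nhe6*-knockout, with replicate 2 at the bottom. This gave a log2 fold change of -0.07 ± 0.40 (SE; 95% interval -1.04 to 0.91; edgeR adjusted p = 0.962). Without wildtype replicate 2 it was -0.43, with the 3 *Nhe6*-knockout cultures below the 2 others of wildtype (adjusted p = 0.234). The ratio of *H2-K1* to *H2-D1* counts within a library was 2.32, 2.46 and 1.76 in *Nhe6*-knockout and 2.68, 1.37 and 2.19 in wildtype cultures. These ratios overlapped, with a difference of 0.11 on the log2 scale (two-sided exact permutation p = 0.8, where 3 cultures against 3 cannot give less than 0.1).

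*B2m*, the light chain that every class I molecule needs, was far the most abundant member, with 28827 normalized counts per kb in *Nhe6*-knockout and 31059 in wildtype cultures. It had 25432, 23542 and 25399.9 normalized counts in *Nhe6*-knockout and 26655, 20712 and 32764 in wildtype cultures. The *Nhe6*-knockout values lay close together, inside the wider range of the wildtype ones. The log2 fold change was -0.11 ± 0.21 (SE; 95% interval -0.61 to 0.40; edgeR adjusted p = 0.887), and -0.27 without wildtype replicate 2 (adjusted p = 0.403).

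*Psmb8* and *Psmb9* encode interferon-inducible catalytic subunits that replace the constitutive subunits encoded by *Psmb5* and *Psmb6* in the immunoproteasome. *Psmb8* had 741, 784 and 461 normalized counts in *Nhe6*-knockout and 617, 81.5 and 502 in wildtype cultures. Wildtype replicate 2 held the lowest value by far, at 0.146 times the mean of the other wildtype cultures, and the remaining values overlapped. Between genotypes the log2 fold change was 0.73 ± 0.67 (SE; 95% interval -0.89 to 2.34; edgeR adjusted p = 0.739), and 0.24 without wildtype replicate 2 (adjusted p = 0.674).

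For *Psmb9* the normalized counts were 226, 199.8 and 161 in *Nhe6*-knockout and 207, 77.4 and 193 in wildtype cultures. Again the groups overlapped, with wildtype replicate 2 lowest. The log2 fold change of 0.30 ± 0.40 (SE; 95% interval -0.66 to 1.257; edgeR adjusted p = 0.829) became -0.04 without that culture (adjusted p = 0.949). *Psmb9* on the minus strand and *Tap1* on the plus strand overlap in the GENCODE annotation, and the strand setting of the counting was not given in the sources used here, so some reads of the overlap could belong to either.

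Set against their constitutive counterparts within each library, the inducible subunits showed the same spread. *Psmb8* reached 1.42, 1.41 and 1.02 times the counts of *Psmb5* in *Nhe6*-knockout and 1.25, 0.164 and 1.72 times in wildtype cultures. *Psmb9* stayed at 0.109, 0.0882 and 0.0707 times the counts of *Psmb6* in *Nhe6*-knockout and at 0.0922, 0.0342 and 0.114 times in wildtype cultures. *Psmb10*, the remaining inducible catalytic subunit, stood at 0.158, 0.200 and 0.117 times *Psmb7* in *Nhe6*-knockout and at 0.144, 0.0578 and 0.0693 times in wildtype cultures. The genotype differences of these log2 ratios were 0.85, 0.30 and 0.90 (two-sided exact permutation p = 0.8, 0.9 and 0.2), and without wildtype replicate 2 they were -0.21, -0.22 and 0.63. Of these ratios, those of *Psmb8* and *Psmb9* thus changed sign with a single culture.

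**Figure D2:**
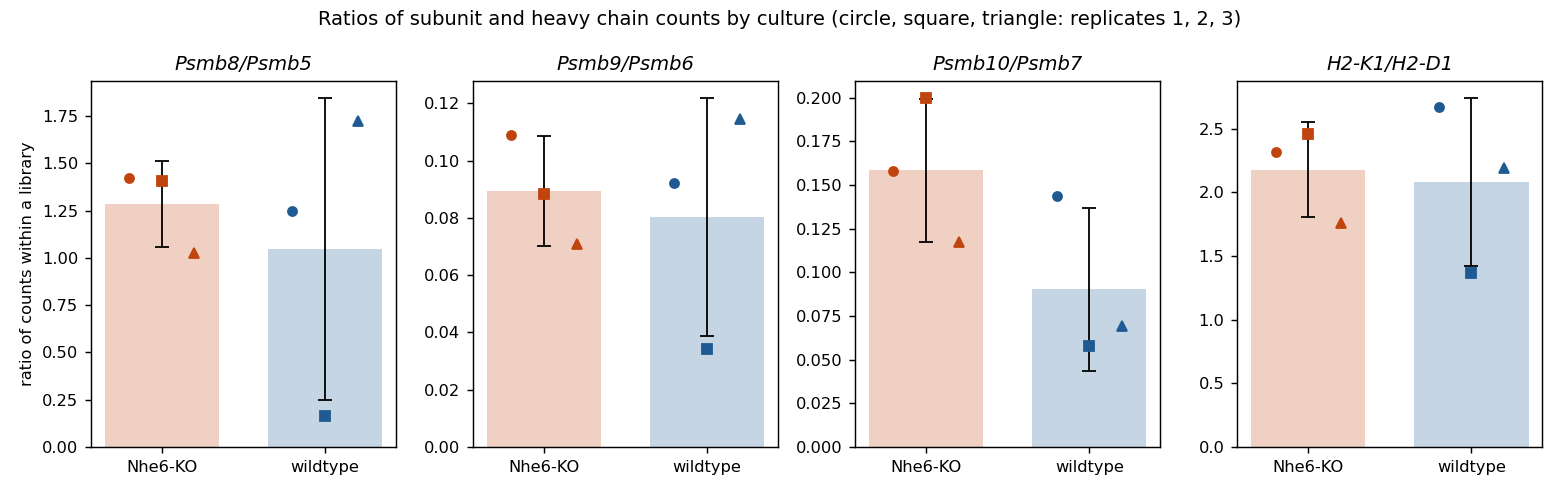
Ratios of counts within a library for 3 inducible over constitutive proteasome subunits and for the heavy chains, on linear axes from 0. Points are cultures (circle, square and triangle for replicates 1, 2 and 3), bars are means and error bars SDs over 3 cultures. The genotypes overlap in all 4 panels, and wildtype replicate 2 is the lowest point in each.

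*Tap1* and *Tap2* encode the subunits of the peptide transporter, and their values differed in pattern. *Tap1* had 1721, 1829 and 1574 normalized counts in *Nhe6*-knockout and 945, 1163 and 814 in wildtype cultures. Every *Nhe6*-knockout culture exceeded every wildtype culture, and wildtype replicate 2 was here the highest wildtype value. The means were 1708 ± 128 and 974 ± 176 (SD, n = 3 each), and the log2 fold change was 0.81 ± 0.16 (SE; 95% interval 0.42 to 1.20), a 1.75-fold difference with an adjusted p of 0.117 in edgeR, 0.133 in limma-voom and 0.00301 in DESeq2. Without wildtype replicate 2 it was 0.95 and the adjusted p in edgeR was 0.0325, the one class I gene of the 10 past the threshold there, where 2.88% of all genes passed and 19.5% had an unadjusted p under 0.05. With *Nhe6*-knockout replicates 1 and 2 summed into 1 library the log2 fold change was 0.78 (adjusted p = 0.536).

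*Tap2* had 1453, 1659.9 and 1256 normalized counts in *Nhe6*-knockout and 1568, 1004 and 1009 in wildtype cultures. Wildtype replicate 1 lay among the *Nhe6*-knockout values and the other wildtype cultures lay below them all. The log2 fold change was 0.29 ± 0.22 (SE; 95% interval -0.24 to 0.81; edgeR adjusted p = 0.672), and 0.17 without wildtype replicate 2 (adjusted p = 0.724). The ratio of *Tap1* to *Tap2*, chosen after its values were seen and therefore not tested, was 1.18, 1.10 and 1.25 in *Nhe6*-knockout and 0.603, 1.16 and 0.807 in wildtype cultures.

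*Tapbp* encodes tapasin, which bridges the transporter and the empty heavy chain. The 6 values were 3406, 3673 and 3856 normalized counts in *Nhe6*-knockout and 5352, 4194 and 4715 in wildtype cultures. It was the one member with every *Nhe6*-knockout culture below every wildtype culture. The means were 3645 ± 226 and 4754 ± 580.2 (SD, n = 3 each), and the log2 fold change was -0.38 ± 0.13 (SE; 95% interval -0.71 to -0.06; adjusted p = 0.346 in edgeR and 0.177 in DESeq2), with -0.47 and an edgeR adjusted p of 0.111 without wildtype replicate 2.

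*Erap1* encodes the aminopeptidase that trims peptides in the endoplasmic reticulum. It had 1706, 1699.9 and 1321 normalized counts in *Nhe6*-knockout and 1996, 1094 and 2971 in wildtype cultures. The *Nhe6*-knockout cultures lay between wildtype replicate 2 and the other wildtype cultures. This gave a log2 fold change of -0.36 ± 0.35 (SE; 95% interval -1.20 to 0.48; edgeR adjusted p = 0.754), and -0.66 without wildtype replicate 2 (adjusted p = 0.162).

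**Figure D3:**
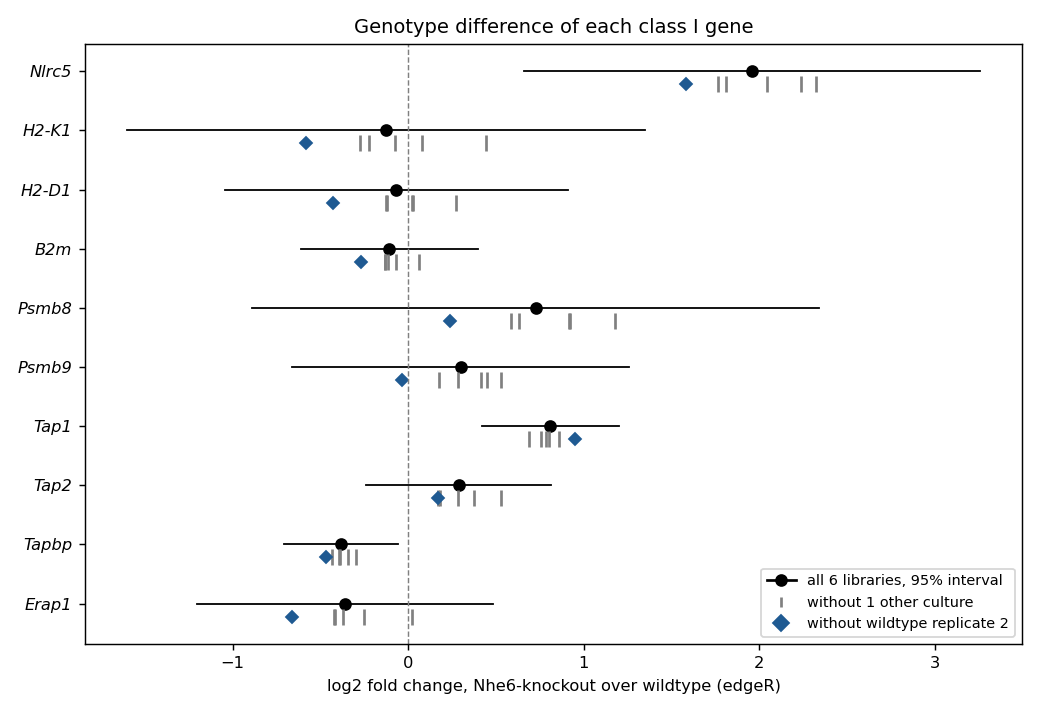
Log2 fold change of each class I gene, *Nhe6*-knockout over wildtype, from edgeR. Black points and lines are the estimate with all 6 libraries and its 95% interval, blue diamonds the estimate without wildtype replicate 2, and grey ticks the estimates without 1 of the other cultures. The intervals of *Nlrc5*, *Tap1* and *Tapbp* do not reach 0. The diamonds of all genes but *Tap1* lie to the left of their points.

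The spread among cultures of 1 genotype was wide for most of these genes. Wildtype replicate 2 held the lowest value of the 6 libraries for 8 of the 10 genes, against 26.5% of all genes tested. Relative to the mean of the other wildtype cultures, it held 0.146 times the *Psmb8* counts, 0.192 times those of *H2-K1*, 0.321 times those of *Nlrc5*, 0.345 times those of *H2-D1* and 0.387 times those of *Psmb9*, but 0.833 times those of *Tapbp* and 1.32 times those of *Tap1*. *Nhe6*-knockout replicate 3 was lowest of its genotype for 8 of the 10 genes, against 43.1% of all genes, with 0.460 times the *Nlrc5* counts of the other *Nhe6*-knockout cultures, 0.586 times those of *H2-K1* and 0.604 times those of *Psmb8*. The genes with the widest spread in wildtype cultures were *Psmb8* and *H2-K1*, with coefficients of variation of 70.4% and 70.0%, and the steadiest was *Tapbp* with 12.2%.

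The same libraries were also low in macrophage markers. The summed normalized counts of the 10 macrophage and leukocyte markers were 2938, 3259 and 1288 in *Nhe6*-knockout and 3196, 91.8 and 1759 in wildtype cultures. All 8 of these markers that were tested were lowest in wildtype replicate 2, where 7 of the 10 had at most 3 reads, *Ptprc*, *C1qa* and *Adgre1* among them with 0. *Lyz2*, the most abundant of the list, had 29.9 normalized counts there and 817 to 2259 in the other libraries. All 5 T, B and NK cell markers had at most 3 reads in each library. Markers of other cell types moved as far in that library. *Emcn* and *Eng*, endothelial markers, had 410 and 867 normalized counts in wildtype replicate 2 against 9900.2 to 18393 and 2722 to 5081 elsewhere. They were the only 2 of the 6 endothelial markers tested that were lowest there. *Cdh5*, *Flt1* and *Tek* were highest there, with 5200, 3175 and 1006 against at most 3470, 1150 and 837 elsewhere. *Acta2* and *Cspg4*, mural markers, had 16275 and 4409.5 against 29.3 to 1204 and 385 to 783, and *Col1a1*, a fibroblast collagen, had 27187 against 207 to 1228. Not all markers of these lists rose. The mural markers *Pdgfrb*, *Rgs5*, *Des* and *Abcc9* were lowest there, as were 5 of the 7 fibroblast markers. *Pdgfrb* had 7793 against 14685 to 18992 elsewhere. The part of macrophage or other cell types in the low *H2-K1*, *H2-D1*, *Psmb8* and *Psmb9* values was not tested.

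**Figure D4:**
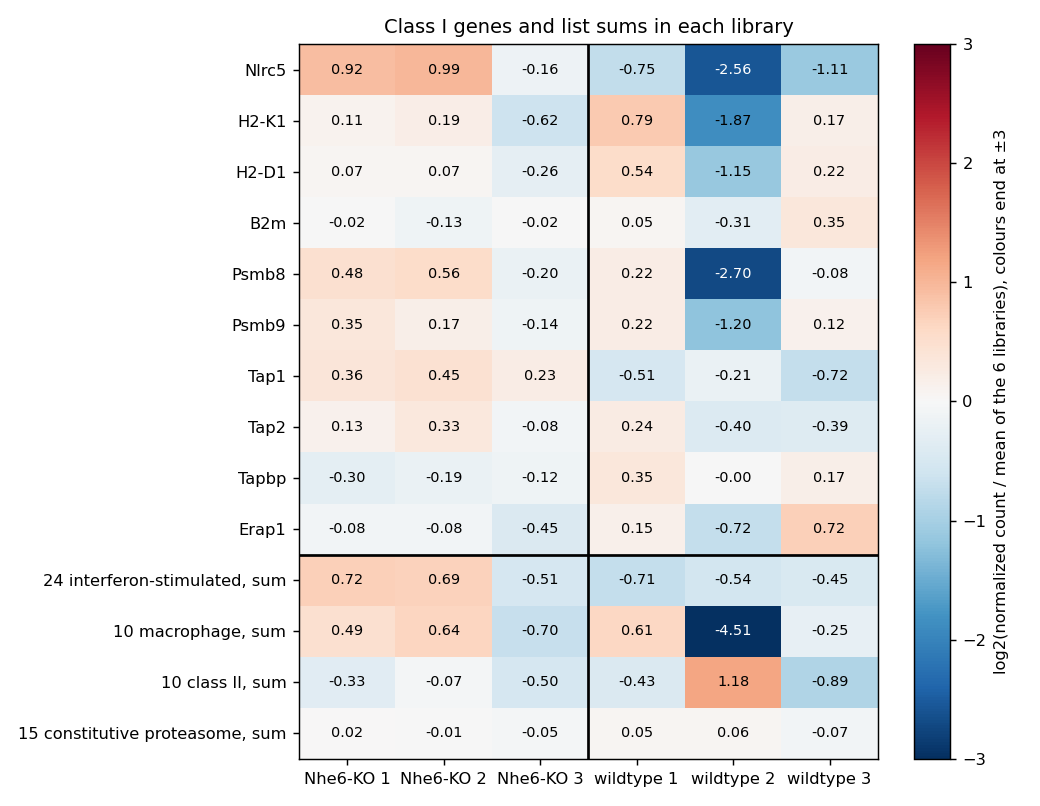
Heat map of log2(normalized count / mean of the 6 libraries), with libraries as columns, the 10 class I genes as the upper lines and summed lists as the lower lines. Colours end at ±3 and the value is written in each cell. The column of wildtype replicate 2 is low for *Psmb8* (-2.70), *Nlrc5* (-2.56), *H2-K1* (-1.87) and the macrophage markers (-4.51), and the constitutive proteasome stays between -0.07 and 0.06.

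Other genes of the class I pathway were taken as lists: heavy chains and class I-like chains, loading partners, inducible and constitutive proteasome genes, peptidases, regulators, and interferon receptors with their kinases. Of these 80 genes 64 could be tested, none passed the threshold in edgeR, 8 had an unadjusted p under 0.05 (11.8% of all genes), and DESeq2 called 2. Their median log2 fold change was -0.01.

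The loading partners lay near 0, and all 5 overlapped between genotypes. *Calr* and *Canx*, which encode the chaperones calreticulin and calnexin, and *Pdia3*, a disulfide isomerase of the loading complex, had log2 fold changes of -0.06, -0.09 and -0.13. The 15 constitutive proteasome subunits ranged from -0.21 to 0.25, with none at an unadjusted p under 0.05 in edgeR, and their summed normalized counts were 36160 to 39559 in all libraries. Of the other inducible proteasome genes, *Psmb10* had 426, 512 and 299 normalized counts in *Nhe6*-knockout and 413, 186 and 196 in wildtype cultures, a log2 fold change of 0.64 ± 0.38 (SE; edgeR adjusted p = 0.574; 0.43 without wildtype replicate 2) with overlapping groups. *Psme1*, a subunit of the proteasome activator PA28, had -0.04 ± 0.24 (SE; adjusted p = 0.963), and -0.27 without wildtype replicate 2 (adjusted p = 0.290).

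Of the 24 nonclassical and class I-like chains only 11 had enough reads to be tested. Reads that align equally well to several sites were not counted on genes, and *H2-Q6*, *H2-Q7*, *H2-Q8* and *H2-Q9*, near-identical copies, had 0 reads in every library, so their level is uncertain. *H2-T23*, which encodes the Qa-1 chain, had 778, 863 and 558 normalized counts in *Nhe6*-knockout and 1272, 971 and 933 in wildtype cultures. *H2-M3*, a chain that binds formylated peptides, had 222, 173 and 197 against 288, 356 and 248, and *Cd1d1*, which presents lipids, had 74.4, 78.1 and 99.4 against 143, 141 and 131. All 3 were lower in *Nhe6*-knockout without overlap, which holds for 9.57% of all genes, with log2 fold changes of -0.53 ± 0.21, -0.59 ± 0.21 and -0.72 ± 0.24 (SE) and edgeR adjusted p of 0.416, 0.358 and 0.327. Without wildtype replicate 2 these were -0.59, -0.45 and -0.71. *Fcgrt*, the neonatal Fc receptor, and *Mr1*, which presents vitamin metabolites, overlapped between genotypes.

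Among the regulators, *Stat2* had 3879.8, 4074 and 1349 normalized counts in *Nhe6*-knockout and 1202, 1167 and 1131 in wildtype cultures. *Irf9*, its partner in the ISGF3 complex of type I interferon signalling, had 2821, 2757 and 1330.1 in *Nhe6*-knockout and 1385, 928 and 1073 in wildtype cultures. The genotypes did not overlap for *Stat2*, with *Nhe6*-knockout replicate 3 nearest to wildtype, and overlapped by that culture for *Irf9*. Their log2 fold changes were 1.41 ± 0.40 and 1.03 ± 0.32 (SE), with adjusted p of 0.249 and 0.281 in edgeR and 0.0208 and 0.0655 in DESeq2, and without wildtype replicate 2 they were 1.405 and 0.90. *Irf1*, a direct activator of class I genes, had -0.05 ± 0.31 (SE; edgeR adjusted p = 0.964), and -0.35 without wildtype replicate 2 (adjusted p = 0.193). The subunits of the RFX and NF-Y complexes ranged from -0.57 to 0.22 with all libraries, the lowest being *Rfxap*, which stood at -0.84 without that culture (edgeR adjusted p = 0.0842). *Ciita*, the class II relative of *Nlrc5*, had at most 7 reads in a library. *Ifngr1*, a chain of the interferon gamma receptor, had 1545, 1460.1 and 1319.6 normalized counts in *Nhe6*-knockout and 1869.9, 2097 and 1725 in wildtype cultures, lower without overlap (log2 fold change -0.40 ± 0.13 SE; edgeR adjusted p = 0.299; -0.32 without wildtype replicate 2).

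Most interferon-stimulated genes outside the class I pathway lay above wildtype. Of 24 listed genes 23 were tested, and 21 of them had a log2 fold change above 0, where 48.1% of all genes did, with a median of 1.08. None passed the threshold in edgeR, 12 had an unadjusted p under 0.05, all 12 higher (6.14% of all genes), 10 did not overlap between genotypes, all higher (10.3% of all genes), and DESeq2 called 10. Without wildtype replicate 2 the median was 1.12 and again none passed in edgeR. *Usp18*, which dampens interferon signalling, had 1062, 1073 and 300.1 normalized counts in *Nhe6*-knockout and 113, 68.1 and 146 in wildtype cultures (log2 fold change 2.90 ± 0.56 SE; adjusted p = 0.114 in edgeR and 9.25e-06 in DESeq2; 2.64 without wildtype replicate 2). *Isg15*, a ubiquitin-like modifier, had 1357, 1433 and 404 against 159, 80.5 and 225 (log2 fold change 2.78 ± 0.59 SE; edgeR adjusted p = 0.134). In *Ifit1*, *Mx2*, *Oas1a*, *Rsad2* and *Xaf1*, antiviral genes that did not overlap either, the log2 fold changes ran from 1.44 to 3.74. The largest were those of *Rsad2* (3.74 ± 0.99 SE; edgeR adjusted p = 0.215) and *Oas1a* (3.39 ± 0.85 SE; edgeR adjusted p = 0.192). Both were near the floor, with at most 7.49 normalized counts in a wildtype culture.

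*Nhe6*-knockout replicate 3 was far below its partners across this list. The summed normalized counts of the 24 genes were 43214 and 42311 in *Nhe6*-knockout replicates 1 and 2 but 18331 in replicate 3, against 15942 to 19192 in wildtype cultures, so the sums overlapped. *Nlrc5*, at 147 in replicate 3 against 311 and 326, showed that order, and *Tap1*, at 1574 against 1721 and 1829, showed it weakly. The order was not particular to them. Replicate 3 held 0.887 times the *Tap1* counts of the other *Nhe6*-knockout cultures, but 0.586 times those of *H2-K1*, 0.604 of *Psmb8*, 0.756 of *Psmb9*, 0.776 of *Erap1* and 0.797 of *H2-D1*. It was lowest of its genotype for 8 of the 10 class I genes, against 43.1% of all genes. *B2m* (1.04 times) and *Tapbp* (1.09 times) went the other way. Wildtype replicate 2, lowest for 8 of the 10 class I genes, was lowest for 11 of the 23 interferon-stimulated genes tested.

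**Figure D5:**
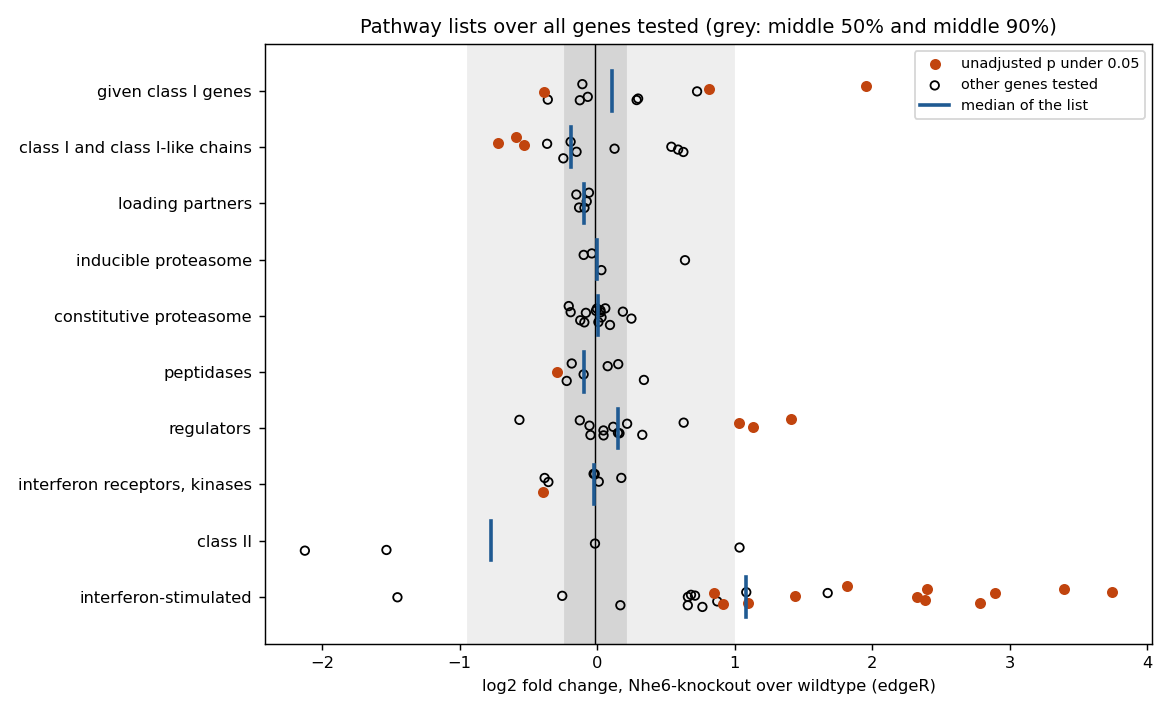
Log2 fold change (edgeR, *Nhe6*-knockout over wildtype) of every tested gene of the class I lists, class II and the interferon-stimulated genes, 1 line per list. Filled points have an unadjusted p under 0.05, blue bars are list medians, and grey bands hold the middle 50% and 90% of all genes tested. The interferon-stimulated genes have a median of 1.08 and the given class I genes one of 0.11.

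The class II list was mostly low. Of 10 genes, 4 were tested and none had an unadjusted p under 0.05 in edgeR, and *H2-Aa*, *H2-Ab1* and *Cd74*, defining chains of class II presentation, had at most 14 reads in a library. *H2-Eb1* and *H2-DMb1* were high in wildtype replicate 2 alone, with 324 and 576 normalized counts against 10.8 to 33.1 and 64.8 to 109 in the other libraries. *H2-DMa*, which helps to load class II, was also highest there, with 231 against 64.2 to 138.5, while *Ctss*, a protease of the same route, had 0 against 79.5 to 203.

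Across the 6 libraries *H2-K1* and *H2-D1* moved together (Pearson r = 0.99 on log2 CPM, and 0.97 without wildtype replicate 2). *Tap1* followed *H2-K1* at -0.11, and at -0.48 without that culture. Leaving it out lowered the r with *H2-K1* for *B2m* (0.645 to 0.154), *Psmb8* (0.90 to 0.47) and *Nlrc5* (0.61 to -0.20). It raised that of *Tapbp* (0.26 to 0.60). *Tapbp* followed *Tap1* at -0.90, where *Tap1* lay above wildtype in *Nhe6*-knockout cultures and *Tapbp* below. The values over all 6 libraries share the standing of wildtype replicate 2. The mean of the 10 standardized class I genes was followed unevenly by its members, with r of 0.985 for *Psmb9* but 0.055 for *Tap1* and 0.083 for *Tapbp*. Genes most like this mean in log2 CPM were sought among 11014 genes outside all the lists, marker lists included, whose mean reached 100 normalized counts. They were *Gpr182*, *Cd9*, *Igf1*, *Coro2b* and *Tfcp2l1*. Because they were picked by r over the 6 libraries, both of the following ranges are high by selection. Over the 6 libraries r was 0.994 to 0.998, and without wildtype replicate 2, on the rest of the same libraries, it was 0.949 to 0.997. All 5 were lowest in that culture, where *Gpr182* had 1.03 normalized counts against 40.7 to 372 elsewhere and *Igf1* had 1654 against 21519 to 55341, and none of them had an unadjusted p under 0.05 between genotypes in edgeR.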

How the data were processed

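RNA of 3 *Nhe6*-knockout and 3 wildtype endothelial cultures was analysed. The authors deposited raw read counts per gene symbol, mapped to mm10. The submitters' processing notes name bcl2fastq 2.20.0.422, STAR 2.7.7a, HTSeq 0.13.5 and DESeq2 1.26.0. The annotation and the strand setting were not given in the sources used here. Summary lines for reads that were not counted on a gene (22.2% of reads) were left out.

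Genes were filtered with filterByExpr (minimum count 10), normalized with TMM, and compared by genotype in edgeR 4.0.16 (R 4.3.3, quasi-likelihood F-test), with a threshold of 0.05 on the Benjamini-Hochberg adjusted p over 13479 genes. The standard error is the log2 fold change divided by the root of F. P-values measure the spread between the libraries of a genotype, taken as separate cultures. Ratios used a pseudocount of 0.5 counts and an exact permutation test. Alternatives were DESeq2 1.42.0, limma-voom (limma 3.58.1), other normalizations and filters, a replicate block and leaving out each culture. Summing *Nhe6*-knockout replicates 1 and 2 was added after seeing the data.

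The 10 genes, the lists and the tests were chosen with earlier results of these data known. Genes named are the 10, list genes with the smallest p, past the threshold or needed as counterparts, and the 5 most alike genes. Other list genes named (loading partners, *Psme1*, *Irf1*, *Rfxap*, *Ciita*, *Fcgrt*, *Mr1*, class II and marker genes) were chosen for their known role or after their values were seen. Normalized counts per kb divide by the principal transcript in GENCODE M21. The targeted gene and a gene of the regulator list are not reported here.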

Additional observations from a re-analysis of the deposited data

How the results depend on the processing

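Each class I gene was recomputed under 14 alternatives. *Tap1* (0.69 to 0.95), *Tap2*, *Psmb8* and *Nlrc5* (1.58 to 2.32) kept a log2 fold change above 0 and *Tapbp* (-0.47 to -0.29) one below 0 in all of them. DESeq2 brought *Tap1* (log2 fold change 0.81) and *Nlrc5* (1.96) past the threshold, and the fit without wildtype replicate 2 brought *Tap1* (0.95), so 2 and 1 of the 10 genes passed there. Leaving out 1 culture gave 0 to 1 class I genes past the threshold and 0 to 395 of all genes, with 395 without wildtype replicate 2. Of all genes, 9 passed with all libraries, 21 with no filter, 21 with at least 10 counts in every library, 627 in DESeq2, 2 with the replicate block and 1 with *Nhe6*-knockout replicates 1 and 2 summed. DESeq2 called 2 of the other pathway genes and 10 of the interferon-stimulated genes.

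The direction turned for 5 genes that did not pass the threshold. The log2 fold change of *H2-K1* was 0.19 in limma-voom and 0.13 with the replicate block, and ran from -0.58 to 0.44 when 1 culture was left out. For *H2-D1* these values were 0.083, 0.070 and -0.43 to 0.27. Leaving out 1 culture gave -0.27 to 0.059 for *B2m*, -0.037 to 0.53 for *Psmb9* and -0.66 to 0.021 for *Erap1*, each turned by 1 wildtype culture (replicate 3, replicate 2 and replicate 3). When 1 culture was left out, the log2 ratio differences ran from -0.21 to 1.49 for *Psmb8* to *Psmb5*, from -0.22 to 0.65 for *Psmb9* to *Psmb6* and from -0.17 to 0.32 for *H2-K1* to *H2-D1*, each lowest and below 0 without wildtype replicate 2. The cause was not tested.

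Same-numbered cultures deviated from their group means with correlations of 0.20, -0.20 and 0.09. With 3 cultures a genotype and wildtype replicate 2 apart, these values cannot decide whether the replicate numbers pair the cultures. With 3 cultures a genotype, the exact tests could not pass the threshold. The intervals of the heavy chains were wide, -1.60 to 1.35 for *H2-K1* and -1.04 to 0.91 for *H2-D1*. Differences within them, in either direction, cannot be told from 0 at this spread.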
